A study of Mus musculus with 8 samples.

Results

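The NRF2 oxidative stress pathway was followed here through 10 genes, Nfe2l2, Keap1, Maff, Mafg, Nqo1, Hmox1, Gclc, Gclm, Txnrd1 and Srxn1, which were chosen by name as 4 regulators and 6 enzymes. Each of the 10 had an annotated transcription start site (TSS) inside a region marked by acetylation of histone H3 at lysine 27 (H3K27ac), as did 12261 of 55304 gene symbols in the GENCODE M21 annotation. The regions came from chromatin immunoprecipitation and sequencing (ChIP-seq) of mouse primary hepatocytes (MPH), cells freshly isolated from the livers of wild-type adult male C57Bl6 mice (C57BL/6J, 10 weeks old) and kept in serum-free medium. H3K27ac thapsigargin libraries (n = 3) came from cells given 1 µM thapsigargin for 4 h, H3K27ac vehicle libraries (n = 3) from cells given 0.04% DMSO, and each condition had 1 input library, which makes 8 libraries in all. Thapsigargin blocks the calcium pump of the endoplasmic reticulum and thereby causes endoplasmic reticulum stress (ERS). Hepatocytes isolated into culture are without the tissue architecture and blood supply of the liver, which limits them as a model of the organ.

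NRF2, the protein made from Nfe2l2, is a transcription factor that KEAP1 holds in the cytoplasm and presents for degradation. Oxidants and electrophiles modify KEAP1, and PERK, a sensor of endoplasmic reticulum stress, can phosphorylate NRF2, so that NRF2 accumulates, pairs with a small MAF protein and binds antioxidant response elements (ARE) at genes for glutathione synthesis, thioredoxin recycling, quinone detoxification and heme breakdown. H3K27ac marks active promoters and enhancers, and the hepatocyte relies on this pathway to handle reactive metabolites.

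The 3 lists held 5508 regions with higher H3K27ac under thapsigargin (UP), 3376 with lower (DOWN) and 23312 without a significant change (unchanged). They carry positions and region names only. No count, signal or p-value of a single library was at hand, so the depth behind each region is unknown, and every value below is a position, a width or a count of regions, without replicate error and without a test of its own. The class of a region rests on the authors' paired comparison of the 3 libraries per condition in small bins. A changed region had a false discovery rate of at most 0.05 over its combined bins, and was UP where its UP bins numbered at least 2 for each DOWN bin and DOWN where the ratio was 0.5 or less. This ratio counts bins, so the class gives no fold change of H3K27ac. Regions that passed the false discovery rate with a bin ratio between these limits are in none of the lists. All 6 hepatocyte markers examined, Alb, Ttr, Apoa1, Apoa2, Serpina1a and Tat, had a TSS in a region, which was DOWN for Apoa1 and Serpina1a and unchanged for the others. A TSS in a region was also found for 1 of 3 Kupffer cell and leukocyte markers (Cd68, unchanged) and 1 of 3 endothelial markers (Stab2, unchanged). It was found for 0 of 3 stellate cell markers and 1 of 3 cholangiocyte markers (Sox9, in UP). The part of other cells in the regions was not tested. In such bulk chromatin a change in the share of cells that carry the mark and a change in its level per cell cannot be told apart.

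The clearest contrast among the 10 genes lay between Hmox1, surrounded by UP regions, and Gclc, whose start lay in a single very wide DOWN region. An UP region upstream of Hmox1, the UP region at its start and the DOWN region of Gclc each held an extended form of the ARE. This NF-E2 motif, GCTGAGTCA on either strand, contains an AP-1 motif (TGANTCA), and its reverse complement is also a match to the ARE core TGACNNNGC, so these matches are counted under all 3 names. Windows around the matches upstream of Hmox1 and Gclc, picked after their positions were known, are shown because the same letters occurred in regions of opposite class. They were read from the plus strand of mm10 (GRCm38.p6), and capitals mark the NF-E2 match.
Hmox1, UP, chr8:75083924-75084039: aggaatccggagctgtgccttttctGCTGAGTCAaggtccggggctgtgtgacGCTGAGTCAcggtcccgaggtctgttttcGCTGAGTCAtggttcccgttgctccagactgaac
Hmox1, UP, chr8:75089725-75089783: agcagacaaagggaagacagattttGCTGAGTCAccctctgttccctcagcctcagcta
Gclc, DOWN, chr9:77750720-77750778: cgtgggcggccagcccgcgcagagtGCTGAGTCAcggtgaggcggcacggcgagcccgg
Gclc, DOWN, chr9:77752493-77752551: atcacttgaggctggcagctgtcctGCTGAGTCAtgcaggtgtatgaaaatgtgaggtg

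The first Hmox1 window, from -9697 to -9582 bp of the gene start, held 3 NF-E2 matches. Of all 32196 regions, 17 (0.0528%) held 3 NF-E2 matches within 100 bp, and of these 8 were UP, 0 DOWN and 9 unchanged. This rule follows the Hmox1 window itself, whose region is 1 of the 8. Among all regions 17.1% were UP and 10.5% DOWN, and a link of such clusters to a class was not tested. The other Hmox1 window lay from -3896 to -3838 bp, and the Gclc windows from -3815 to -3757 bp and from -2042 to -1984 bp. A match describes the letters of the genome and says nothing about whether a factor was bound.

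At their TSSs the 10 genes did not share one class. A TSS lay in an UP region for 2 of 10 genes, Hmox1 and Srxn1, against 21.4% of all genes with a TSS in a region. A TSS lay in a DOWN region for 3 of 10, Nfe2l2, Maff and Gclc, against 8.91%. The remaining 5, Keap1, Mafg, Nqo1, Gclm and Txnrd1, had TSSs in unchanged regions only, and Gclc had a further TSS in an unchanged region. Counted by role, the DOWN promoters belonged to 2 of 4 regulators and 1 of 6 enzymes, and both UP promoters to enzymes. A difference by role was not tested. Of 7 other regulators, described below, 3 started in UP and 0 in DOWN, and the other groups there were mixed.

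**Figure D1:**
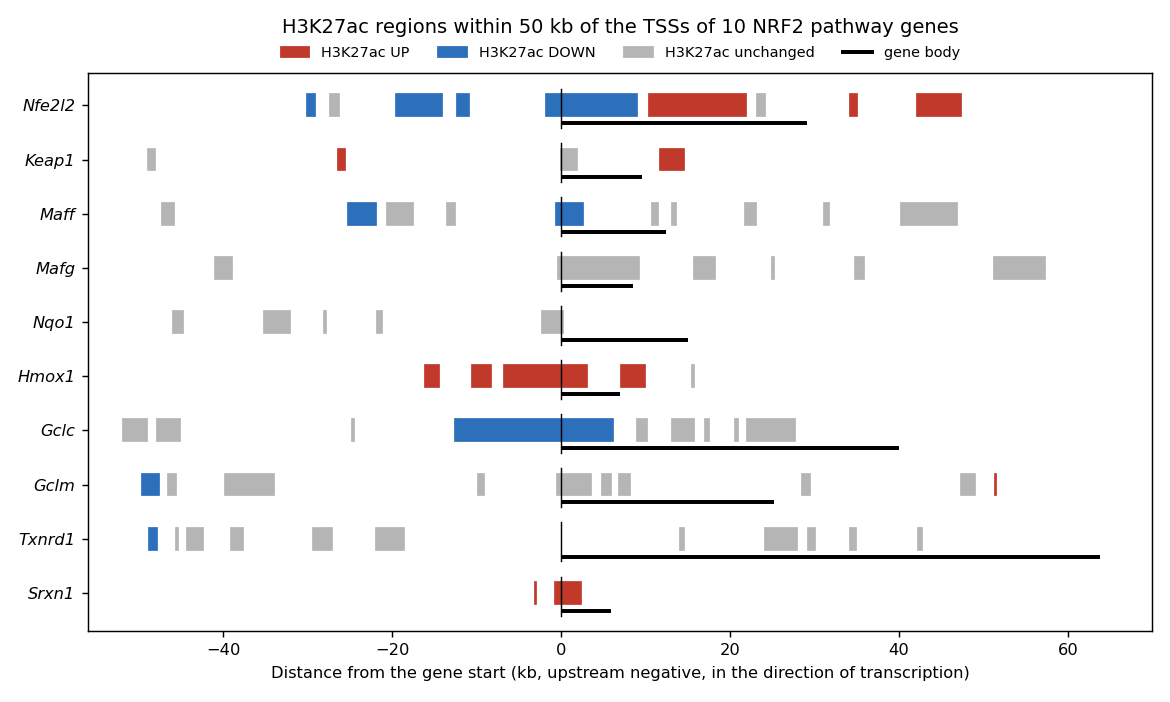
Regions within 50 kb of the TSSs of each gene, drawn to scale as distance from the gene start in kb along the direction of transcription, with UP regions in red, DOWN in blue, unchanged in grey and the gene body as a black line. Hmox1 and Srxn1 start in UP regions, Nfe2l2, Maff and Gclc in DOWN regions, and Nfe2l2 carries UP regions downstream of its DOWN start.

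The regions at these starts were wide. The 11 regions that hold a TSS of the 10 genes had a median width of 3972 bp (1281 to 18782 bp), compared with 1735 bp for the 10642 regions that hold any TSS. Width also moved with class, since the median over regions with a TSS was 3828.5 bp in DOWN, 2136 bp in UP and 1530 bp in unchanged. Among the 5691 genes whose widest TSS region reached 1983 bp, the width that all 10 genes reached, 16.1% had a TSS in DOWN and 27% in UP. Of the genes in the widest 10% (5525 bp or more), 31.7% had a TSS in DOWN and 28.4% in UP. The 4 pathway genes in that bin were Gclc and Nfe2l2, both DOWN, Hmox1, UP, and Mafg, unchanged. The part of width in the count of DOWN promoters was not tested.

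**Figure D2:**
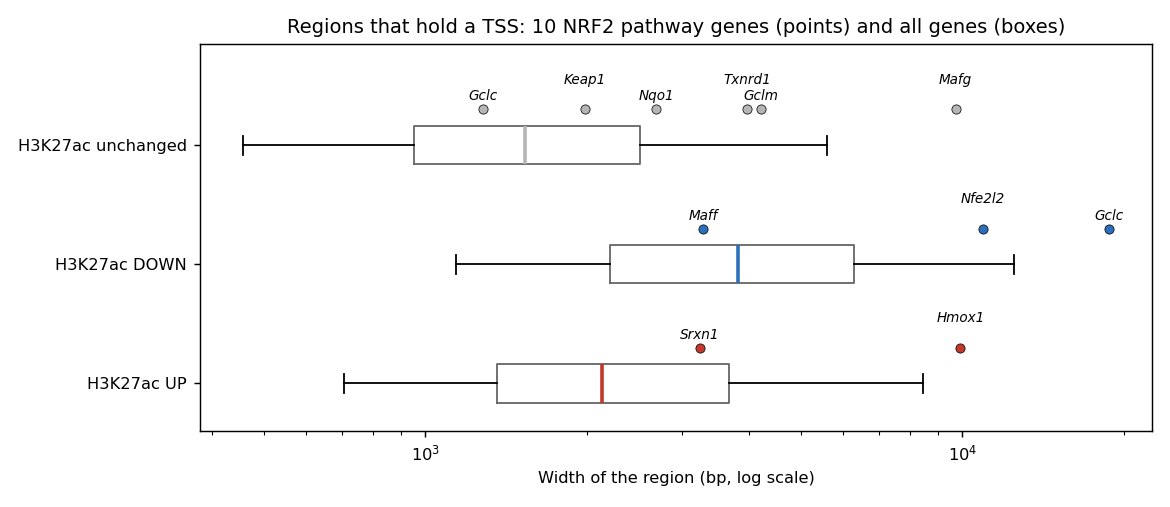
Width in bp (log scale) of the 10642 regions that hold any TSS, by class, as boxes (median and quartiles, whiskers from the 5th to the 95th percentile), with the 11 regions of the 10 genes as points above them. Hmox1 (9923 bp), Gclc (18782 bp) and Mafg (9719 bp) lie beyond the upper whisker of their class.

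Nfe2l2, which encodes NRF2 itself, lay between DOWN chromatin upstream and UP chromatin downstream. The gene (ENSMUSG00000015839.6, chr2:75675513-75704641, minus strand) has 2 annotated transcripts, and both started in a DOWN region of 10932 bp (chr2:75695643-75706574) that ran from -1933 to +8998 bp of the gene start. This region was wider than 98.4% of regions with a TSS, covered 8721 intronic and 278 exonic bp, and also held the start of E030042O20Rik. Only 1335 bp further along the gene began an UP region of 11498 bp (chr2:75682810-75694307), from +10334 to +21831 bp, wider than 98.8% of UP regions. It covered 10177 intronic and 1321 exonic bp with no coding sequence, and held the start of the small RNA gene Gm24996.

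Altogether 39.5% of the Nfe2l2 gene body was UP and 30.9% DOWN. Upstream of the gene 3 further DOWN regions of 1549, 5606 and 1105 bp lay 10901, 14041 and 29103 bp from the start. Downstream were UP regions of 940 bp and 5326 bp, the latter at Hnrnpa3, which encodes an RNA-binding protein. Within 50 kb of its TSSs Nfe2l2 thus had 3 UP, 4 DOWN and 2 unchanged regions. Having at least 3 of each changed class in this window was shared by 33 genes (0.269% of those with a TSS in a region), of which Nfe2l2 was the 1 pathway gene. This cut follows the counts at Nfe2l2 itself, so the share is descriptive. Nfe2l2 had 9 regions of any class in the window, against a median of 4. At least 4 DOWN regions within 50 kb were found for 1.19% of genes, and at least 3 UP regions for 7.72%. Of all genes that start in a DOWN region, 38.8% had an UP region within 50 kb.

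Keap1, the sensor that keeps NRF2 low, started in a region of the unchanged class. Of its 6 transcripts (ENSMUSG00000003308.15, chr9:21229730-21239361, minus strand), 5 started in an unchanged region of 1983 bp (chr9:21237503-21239485) and 1 outside any region. An UP region of 2960 bp (chr9:21224862-21227821) lay past the 3′ end of the gene, 9372 bp from the nearest Keap1 TSS, and held the start of Gm16754. Another UP region of 1004 bp held the start of Atg4d, which encodes a protease of autophagy. Both UP regions therefore included the start of another gene, and Keap1 had 0 DOWN regions within 50 kb.

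The small MAF proteins MAFF and MAFG, which lack an activation domain and serve as NRF2 partners, differed in class. All 4 transcripts of Maff (ENSMUSG00000042622.14, chr15:79346621-79359076, plus strand) started in a DOWN region of 3291 bp (chr15:79345926-79349216). A further DOWN region of 3435 bp lay 21898 bp from the nearest Maff TSS, at a start of Pla2g6, a phospholipase gene. The other 8 regions within 50 kb of Maff were unchanged. All 5 transcripts of Mafg (ENSMUSG00000051510.13, chr11:120625117-120633600, minus strand) started in an unchanged region of 9719 bp (chr11:120624426-120634144) that covered 100% of the gene. That region was shared with the start of Sirt7, which encodes a deacylase, and was wider than 99.6% of unchanged regions. All 6 regions within 50 kb of Mafg were unchanged.

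Hmox1, which encodes heme oxygenase 1, the enzyme that opens the heme ring, was the gene with the most UP regions. Of its 2 annotated transcripts (ENSMUSG00000005413.8, chr8:75093621-75100589, plus strand), 1 started in an UP region of 9923 bp (chr8:75086796-75096718) and the other at no region. The region ran from -6825 to +3097 bp of the gene start and was wider than 98.0% of regions with a TSS. Upstream lay UP regions of 2389 bp, which holds the 3 NF-E2 matches shown above, and of 1800 bp, at the start of Gm2059. Immediately past the 3′ end was the fourth UP region of 2946 bp (chr8:75100637-75103582), 3793 bp from the nearest annotated Hmox1 TSS. Counting protein-coding transcripts only, the nearest TSS was that of Mcm5.

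With these 4 UP regions, 17058 of the 17378 bp of H3K27ac regions within 50 kb of Hmox1 were UP. The only other region there was an unchanged one of 320 bp. A pattern of at least 4 UP and 0 DOWN regions was found for 259 genes (2.11%), and at least 4 UP regions for 2.88%. Both cuts follow the counts at Hmox1 itself, so these shares are descriptive.

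Srxn1, which encodes sulfiredoxin, the enzyme that restores overoxidized peroxiredoxins, had UP regions only. Its 3 transcripts (ENSMUSG00000032802.8, chr2:152105516-152111376, plus strand) started at 2 positions in an UP region of 3249 bp (chr2:152104636-152107884). A second UP region of 211 bp, among the narrowest of its class (0.109th percentile), lay 3011 bp from the nearest TSS. These were the only regions within 50 kb of Srxn1.

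The enzymes of glutathione synthesis, the catalytic subunit of glutamate-cysteine ligase (Gclc) and its modifier subunit (Gclm), differed in class. Gclc (ENSMUSG00000032350.9, chr9:77754535-77794485, plus strand) had 1 of 3 transcripts starting in a DOWN region of 18782 bp (chr9:77741903-77760684), 1 in an unchanged region of 1281 bp (chr9:77763401-77764681) and 1 outside. The DOWN region spanned -12632 to +6149 bp and was wider than 99.2% of DOWN regions and 99.6% of regions with a TSS. It covered 15.4% of the gene body, where 5 unchanged regions covered a further 27.1%. The 8 other regions within 50 kb of Gclc were unchanged, including the nearest one on each side of the DOWN region.

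Of the 7 Gclm transcripts (ENSMUSG00000028124.15, chr3:122245557-122270732, plus strand), 5 started in an unchanged region of 4221 bp (chr3:122244897-122249117) and 2 outside any region. The changed regions near Gclm were far from it. They were a DOWN region of 2133 bp at 47655 bp from the nearest TSS and an UP region of 317 bp at 34985 bp, the latter inside the gene body of Bcar3. The other 8 regions were unchanged.

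Txnrd1, the cytosolic thioredoxin reductase gene, and Nqo1, which encodes a quinone reductase widely used as a readout of NRF2 activity, started in unchanged regions. Of 8 Txnrd1 transcripts (ENSMUSG00000020250.10, chr10:82833951-82897712, plus strand), 6 started in an unchanged region of 3972 bp (chr10:82857962-82861933). The 2 others, including the one at the annotated gene start, lay outside any region. A DOWN region of 1103 bp lay 47842 bp from the nearest TSS and was nearer to Nfyb, and the 10 other regions within 50 kb were unchanged. The single Nqo1 transcript (ENSMUSG00000003849.8, chr8:107388225-107403206, minus strand) started in an unchanged region of 2689 bp (chr8:107402951-107405639). All 5 regions within 50 kb of Nqo1 were unchanged.

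Over all 10 genes, 71 distinct regions lay within 50 kb of a TSS, none of them counted for more than 1 gene. Of these, 12 (16.9%) were UP, 9 (12.7%) DOWN and 50 (70.4%) unchanged, against 17.1% UP and 10.5% DOWN among all 32196 regions. Both shares were near those of the whole set. Of the 21 changed regions, 57.1% were UP (95% Wilson interval 36.5 to 75.5%, counting error only). The changed regions of the whole set were 5508 UP and 3376 DOWN. The interval treats regions as independent, though 3 UP and 4 DOWN lay near Nfe2l2 and 4 UP near Hmox1. In length the order turned, with 42563 bp UP and 47936 bp DOWN, of which the Gclc DOWN region alone gave 18782 bp. The lengths over all regions were 12847.4 kb UP and 10888.8 kb DOWN.

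Of the 10 genes, 5 had an UP region within 50 kb, against 53.0% of all genes with a TSS in a region, and 5 had a DOWN region, against 31.9%. The 10 genes had more regions of any class near them, with a median of 7.5 against 4, and the part of this difference in these counts was not tested. In the gene body, 3 genes (Nfe2l2, Hmox1 and Srxn1) had an UP region, against 29.7%, and 3 (Nfe2l2, Maff and Gclc) a DOWN region, against 15.0%. Only Mafg and Nqo1 had no changed region within 50 kb, a state shared by 31.4% of genes.

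**Figure D3:**
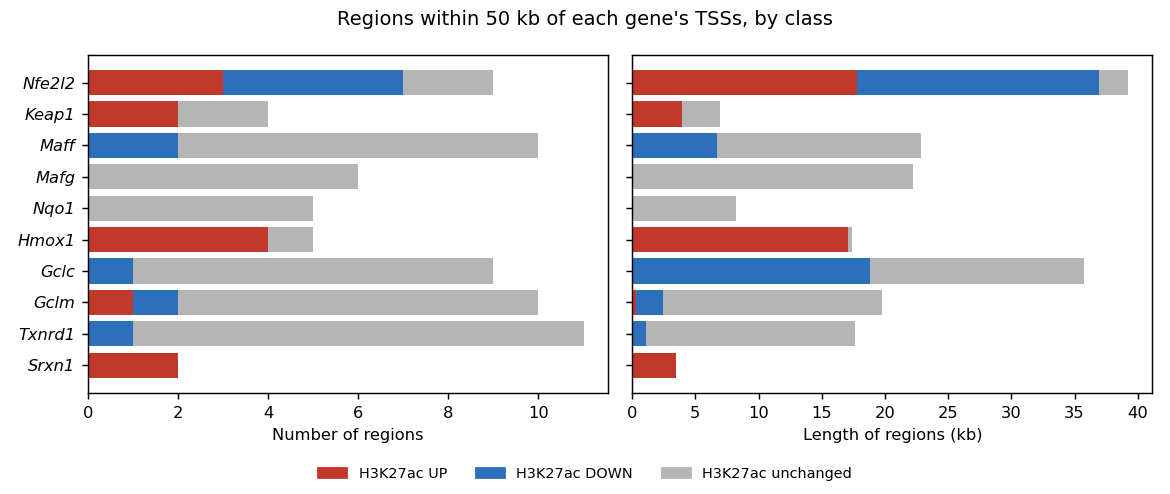
Number (left) and summed length in kb (right) of UP, DOWN and unchanged regions within 50 kb of the TSSs of each gene, as stacked bars. Hmox1 and Srxn1 have no DOWN region, Maff, Gclc and Txnrd1 no UP region, and Nfe2l2 has 17764 bp of UP beside 19192 bp of DOWN.

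Closeness does not assign a region to a gene. Of the 21 changed regions, 5 held a TSS of the 10 genes, 6 held a TSS of another gene only, and 10 held none. For 14 of them, 7 UP and 7 DOWN, the nearest TSS of a protein-coding transcript was that of the pathway gene.

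Promoter sequences, from 250 bases before to 50 after each start in RefSeq (GRCm38.p6), matched 8 of the 10 genes, all but Hmox1 and Gclc, and gave 12 sequences. The ARE core TGACNNNGC, searched on both strands, occurred in 6 of the 12, at 1 start each of Nfe2l2, Maff, Mafg, Gclm, Txnrd1 and Srxn1, against 12.4% of all 32851 promoters. For the 2 genes left out, the match nearest to the GENCODE gene start lay at -3199 bp (Hmox1) and -2017 bp (Gclc). Both lie outside a window of 250 bases before to 50 after that start. The NF-E2 motif occurred in 0 of the 12 (0.454% of all promoters). The promoters with a match in a changed region are shown, on the strand of the gene, to let the letters be compared between a DOWN and an UP start. Capitals mark the ARE core match and, in Srxn1, also its 2 AP-1 matches (TGANTCA, in 7.81% of all promoters), which precede the ARE core match.
Nfe2l2, DOWN, chr2:75704614-75704913, minus strand: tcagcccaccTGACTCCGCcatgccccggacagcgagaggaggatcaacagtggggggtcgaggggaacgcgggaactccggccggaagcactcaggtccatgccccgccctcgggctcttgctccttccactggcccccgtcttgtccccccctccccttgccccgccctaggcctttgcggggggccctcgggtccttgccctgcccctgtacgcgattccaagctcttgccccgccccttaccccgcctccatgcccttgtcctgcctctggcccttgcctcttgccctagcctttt
Maff, DOWN, chr15:79346371-79346670, plus strand: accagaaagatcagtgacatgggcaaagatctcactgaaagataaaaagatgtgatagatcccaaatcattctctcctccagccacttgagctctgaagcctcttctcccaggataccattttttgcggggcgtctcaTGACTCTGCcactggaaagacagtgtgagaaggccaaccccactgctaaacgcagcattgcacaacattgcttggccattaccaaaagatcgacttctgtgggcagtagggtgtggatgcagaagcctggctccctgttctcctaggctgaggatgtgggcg
Srxn1, UP, chr2:152105274-152105573, plus strand: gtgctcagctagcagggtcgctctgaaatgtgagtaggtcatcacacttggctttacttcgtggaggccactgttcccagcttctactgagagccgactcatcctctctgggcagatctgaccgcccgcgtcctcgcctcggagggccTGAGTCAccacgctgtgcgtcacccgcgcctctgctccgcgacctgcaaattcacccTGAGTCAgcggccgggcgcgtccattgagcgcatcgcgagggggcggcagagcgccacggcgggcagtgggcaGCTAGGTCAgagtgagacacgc

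The ARE core thus stood at starts in DOWN (Nfe2l2 and Maff), UP (Srxn1) and unchanged regions (Mafg, Gclm and Txnrd1). The motif TGATGNAA, bound by ATF4 and CHOP of the stress response, was in 0 of the 12 promoters, as against 3.97% of all. The absence says only that these letters are not in these windows. In the regions near these genes the motif did occur, with 31 matches in 20 of the 71 regions. Its density there was 0.160 per kb (95% exact Poisson interval 0.109 to 0.228), compared with 0.162 in all regions. By class it was 0.188 per kb in UP (0.215 in all UP), 0.250 in DOWN (0.147 in all DOWN) and 0.107 in unchanged (0.148 in all unchanged). The intervals of the UP and DOWN values, 0.081 to 0.370 and 0.129 to 0.437 per kb, overlapped. Of the 12 matches in DOWN, 6 lay in the DOWN region of Gclc. A difference between classes was not tested.

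Across all 71 regions near the 10 genes there were 106 ARE core matches, or 0.548 per kb (95% exact Poisson interval 0.449 to 0.663, counting only), compared with 0.437 per kb in all regions. Of the 106, 13 lay in 1 unchanged region of 9719 bp at Mafg (1.34 per kb). The interval takes matches as independent, and the difference from all regions was not tested. By class the density was 0.564 per kb in the UP regions near these genes (0.446 in all UP), 0.334 in the DOWN regions (0.400 in all DOWN) and 0.642 in the unchanged regions (0.445 in all unchanged). The intervals of the UP and DOWN values, 0.361 to 0.839 and 0.191 to 0.542 per kb, overlapped. The AP-1 motif went the other way, with 66 matches in the 71 regions. Its density was 0.341 per kb (0.264 to 0.434), compared with 0.461 in all regions. By gene the ARE core density was highest at Mafg, 0.765 per kb, followed by Nqo1 with 0.733 and Hmox1 with 0.691. It was lowest at Keap1 with 0.144, and all intervals were wide and overlapping.

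NF-E2 matches were found near 4 of the 10 genes, against 27.9% of all genes with a TSS in a region, with 4 at Hmox1 and 2 each at Gclc, Gclm and Mafg. They lay in 6 of the 71 regions (8.45%). In all, 6.69% of regions held such a match (9.24% of UP, 7.97% of DOWN and 5.90% of unchanged). Among these 4 genes the starts were UP (Hmox1), DOWN (Gclc) and unchanged (Gclm and Mafg).

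Other genes of the pathway, 39 in all, were counted in the same way, and 36 had a TSS in a region. Of these 36, 10 (27.8%) started in UP and 4 (11.1%) in DOWN, near the 21.4% and 8.91% of all genes, and 22 in unchanged regions only. The groups below hold 3 to 9 genes with a TSS in a region and are described by their counts alone, to be read against the same 21.4% and 8.91%. Among the regulators 3 of 7 started in UP and 0 in DOWN. The 3 were Nfe2l1, a relative of NRF2 that resides in the endoplasmic reticulum, Mafk, another small MAF gene, and Sqstm1, whose product p62 draws KEAP1 into autophagy and whose UP region measured 17527 bp. The 3 small MAF genes thus differed in class, with Maff DOWN, Mafg unchanged and Mafk UP.

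Of 7 further glutathione genes, 5 had a TSS in a region, of which 0 started in UP and 2 in DOWN, Gss, the glutathione synthetase gene (9387 bp), and Gstp1, a glutathione transferase gene (6896 bp). The thioredoxin group had UP starts in 2 of the 3 genes with a TSS in a region (4 listed), Txn1, which encodes thioredoxin (5426 bp), and Sesn2, which encodes sestrin 2 (1804 bp). Of 6 genes of NADPH supply 2 were UP, Pgd (2921 bp) and Tkt (1299 bp), both of the pentose phosphate pathway, and 0 DOWN.

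In the heme and iron group, Fth1, which encodes the ferritin heavy chain, was the 1 of 6 with an UP start (12998 bp). Detoxification and export was split, with UP starts at the transporter genes Abcc2 (13961 bp) and Abcc4 (624 bp) and DOWN starts at the transporter gene Abcc3 (4014 bp) and at Osgin1, an oxidative stress-induced growth inhibitor gene (21224 bp). Tkt and Abcc2 also had a TSS in an unchanged region. Gpx2, Gsta4 and Prdx6 had no TSS in any region.

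**Figure D4:**
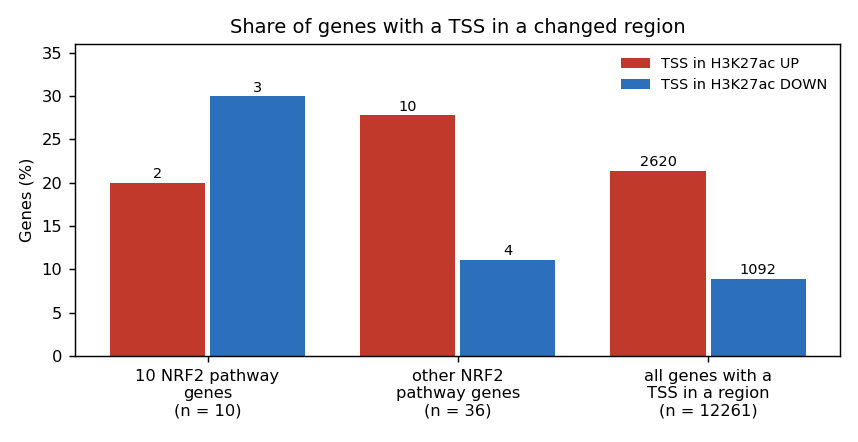
Percentage of genes with a TSS in an UP (red) or DOWN (blue) region among the 10 genes, 36 other pathway genes and all 12261 genes with a TSS in a region, with the number of genes above each bar. No test was made of these shares, and the bar of 30% DOWN stands for 3 genes.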

How the data were processed

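H3K27ac ChIP-seq of MPH was analysed from the region lists that the authors deposited for mm10. According to the study's methods, reads were aligned with Bowtie, broad peaks were called with MACS2 on pooled libraries (q of 0.001 and, for broad regions, 0.01), and csaw 1.6.1 compared thapsigargin with vehicle in bins of 150 bp with loess normalization and a model paired by experiment. Bins overlapping a peak by at least 75 bp were combined. Classes rest on how many bins rose for each bin that fell within a region, not on a fold change. Pooled peak calling means that single libraries cannot be compared here. The deposited columns give chromosome, start, end and a region name, and hold neither signal nor p-values, so depth is unknown.

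TSSs were those of 141730 GENCODE M21 transcripts (mitochondrial ones left out). A gene took every class whose region held one of its TSSs, overlapped its gene body or came within 50 kb of a TSS, and shares were set against the 12261 genes with a TSS in a region. Motifs were searched as exact letters in the RefSeq genome (GRCm38.p6). Widths are ranked by percentile among regions of the class or with a TSS. All 10 genes were named by rule, other pathway genes where their start lay in a changed region, and neighbours where a changed region held their start. The genes and lists were chosen with earlier results of these data known. Scripts (Python 3.11.15, pandas 2.3.3, numpy 2.4.6, scipy 1.17.1) were tested on simulated data. No group comparison could be tested. Alternatives were other windows, TSS definitions, width limits and base pairs in place of counts. After the data were seen, 1 width-restricted background was added. Cuts on region counts at Nfe2l2 and Hmox1 and on clustered NF-E2 matches followed the values at these genes.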

Additional observations from a re-analysis of the deposited data

How the results depend on the processing

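Of 105 alternative values, 94 stayed within the limit for their kind and 11 moved. The limit was 1.5 times for a count, the 95% interval for a share or density, and the same larger class for a single gene. For none of the 10 genes did the balance of UP and DOWN regions turn to the opposite class. Accepting starts up to 1 kb from a region, or requiring coding transcripts, the gene start alone, 500 bp of cover on each side of the TSS or regions of at least 1 kb, left 2 genes with a TSS in UP and 3 in DOWN each time. With a window of 100 kb in place of 50 kb, 5 genes instead of 3 had more UP than DOWN regions, with Mafg and Nqo1 added. Gclc, with more DOWN at 50 kb, had equal numbers at 100 kb, and Txnrd1, also with more DOWN, had equal numbers at 10 kb. Gclm, equal at 50 kb, had more DOWN by base pairs, with regions of at least 1 kb and with the gene start only. The UP share of changed regions ranged from 47.0% by base pairs, where DOWN was the larger class, to 66.7% within 10 kb. No paired analysis was possible because the lists hold no values of single libraries, and leaving out a replicate could not be run for the same reason. As the depth is unknown, an unchanged call or a missing region does not show that H3K27ac stayed the same.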
